A study of Drosophila melanogaster with 9 samples.

Results

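Crosslinks that fell outside every annotated gene were examined in iCLIP2 libraries of the TRIM-NHL protein Mei-P26. A position belonged to this set when the deposited score table gave it no FlyBase gene, on any chromosome or scaffold and in any of the 9 libraries. The rule found 4118 distinct positions (5.98%) among 68832 crosslinked positions, and these carried 8069 of 93955 cDNAs (8.59%). No position was listed both inside and outside a gene. The plus strand held 1961 of the positions and the minus strand 2157.

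Drosophila S2 cells, a line of hemocyte-like character, received plasmids for Mei-P26 in full length or for its NHL domain (residues 908 to 1206), each with a FLAG tag (15 µg DNA per dish, 48 h). The control was non-transfected cells according to the sample titles, the series design and the methods, although the labels' treatment protocol gives Mei-P26 variants with impaired RNA binding as control, and the files could not settle this. All cells were UV-irradiated (300 mJ/cm2 in the labels, a lower dose in the methods), lysates were treated with 10 U RNase, and FLAG immunoprecipitates were cut from a membrane. Each group had 3 biological replicates. The baits were expressed from plasmids in cells that by the study have low levels of mei-P26 mRNA, which limits them as a model of the germline where the protein normally acts.

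In iCLIP, UV light joins RNA to a protein it touches, and reverse transcription tends to stop at the joined nucleotide, so that each cDNA points to 1 crosslinked position. Mei-P26 restrains growth and controls differentiation in the germline and binds U-rich RNA through its NHL domain, a six-bladed β-propeller. An annotation covers only known gene models. RNA outside it can come from transcripts that run past an annotated end or start before an annotated beginning, from antisense transcription, and from pericentromeric DNA and unplaced scaffolds with few gene models. Which of these applied to a given position was not tested. No genome sequence was used here, so neither U content nor repeats were scored.

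Libraries held 849 to 40032 cDNAs, and the controls were the shallowest. Because of this span, levels are given as cDNAs per 10000 cDNAs of the library. Markers of hemocytes were detected for 7 of 10 genes (400 cDNAs in all, led by Col4a1 with 164), although Hml, NimC1 and He were at 0. Of the markers of other tissues, 1 of 5 germline genes (2 cDNAs), 3 of 4 neuronal genes (10 cDNAs) and 0 of 3 muscle genes were detected. The baited gene mei-P26 (FBgn0026206) had 506, 26 and 266 cDNAs with the full-length protein, 58, 90 and 424 with the NHL domain, and 3, 6 and 11 in controls. The plasmids carry its coding region, so these counts do not separate plasmid from endogenous RNA. No position outside genes lay on its strand within 5000 nt of its outermost crosslinks.

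The first question was whether bait libraries held a larger share of such crosslinks than libraries without bait. They did not differ beyond the spread between replicates. With the full-length protein, 757, 107 and 1296 positions outside genes carried 1035, 132 and 2010 cDNAs. With the NHL domain, 309, 460 and 1627 positions carried 440, 702 and 3489 cDNAs. In controls, 93, 67 and 84 positions carried 99, 73 and 89 cDNAs. As a share of all cDNAs this was 7.05% (exact 95% interval 6.64 to 7.47), 7.03% (5.91 to 8.28) and 9.21% (8.83 to 9.60) with the full-length protein. It was 10.2% (9.30 to 11.1), 8.83% (8.22 to 9.48) and 8.72% (8.44 to 9.00) with the NHL domain. Controls had 7.91% (6.47 to 9.54), 6.29% (4.96 to 7.85) and 10.5% (8.50 to 12.7), so the control libraries spanned the values of both baits. The intervals are Clopper-Pearson intervals and cover counting error only.

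**Figure D1:**
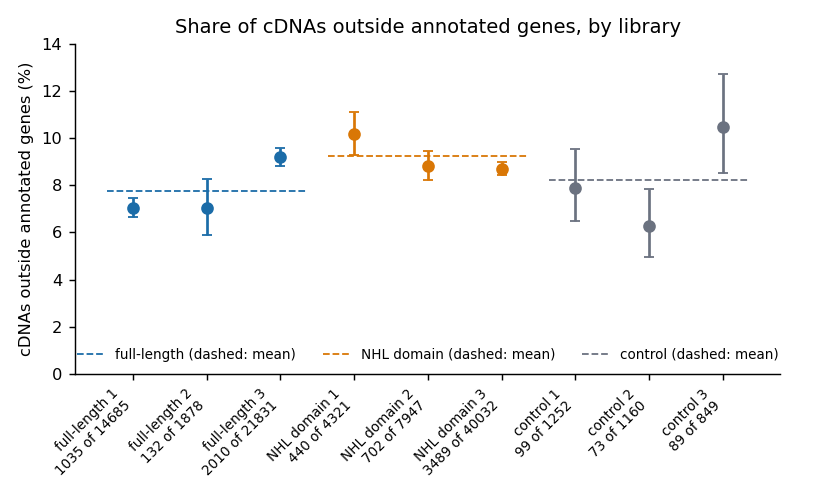
Share of cDNAs outside annotated genes in each library (y axis, percent), with exact 95% intervals as bars and the group mean as a dashed line. The counts stand under each library. The 3 control libraries lie between 6.29% and 10.5% and enclose all 6 bait libraries.

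The mean share was 7.76% ± 1.25 with the full-length protein and 8.23% ± 2.11 in controls (SD, n = 3 each, two-sided exact permutation test, p = 0.7). It was 9.24% ± 0.815 with the NHL domain, against the same controls (exact p = 0.5), and the full-length protein differed from the NHL domain by -1.48 percentage points (exact p = 0.3). With 3 libraries against 3, this test cannot give a p below 0.1.

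The authors' peak caller left the positions outside genes without a score. All of them carry a false discovery rate of 1, and 0 of the deposited peaks and 0 of the deposited clusters lie outside genes, even where a single position held up to 146 cDNAs in 1 library. Positions were therefore joined here into regions when neighbours on the same strand lay at most 50 nt apart. This gave 2712 regions, of which 2113 held a single cDNA over all 9 libraries. At the other end, 72 regions held 10 or more cDNAs each and 54.3% of all cDNAs outside genes, and 4 regions held 100 or more each and 33.6%. The 72 larger regions were mostly narrow, with a median width of 18.5 nt, and 23 of them spanned 10 nt or less.

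The largest region lay immediately upstream of a small nucleolar RNA gene. Small nucleolar RNAs guide the modification or processing of ribosomal RNA, and in flies most are cut out of introns of longer host transcripts. The region spans chr2R:19727153-19727247 on the minus strand (coordinates as in the files, Ensembl release 98, counted from 1). No RefSeq gene span covered it, and whether it belongs to a host transcript was not tested. The region ends 1 nt before the first crosslink assigned to snoRNA:185 (FBgn0065076) and holds 84 positions and 1994 cDNAs, 24.7% of all cDNAs outside genes. It had 157, 29 and 428 cDNAs with the full-length protein, 54, 71 and 1212 with the NHL domain, and 14, 15 and 14 in controls. snoRNA:185 itself had 21, 4 and 24 cDNAs with the full-length protein, 5, 16 and 117 with the NHL domain, and 0, 1 and 4 in controls. Per nt of length the region held 21.0 cDNAs and the 49 nt between the outermost crosslinks of snoRNA:185 held 3.92, and the stretch outside the annotation was the higher of both in each library.

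Relative to depth, the region beside snoRNA:185 had 107, 154 and 196 cDNAs per 10000 with the full-length protein. It had 125, 89.3 and 303 with the NHL domain, against 112, 129 and 165 in controls. NHL domain replicate 3 was the highest of all libraries and NHL domain replicate 2 the lowest, so the groups overlapped. The means were 152 ± 44.6, 172 ± 114 and 135 ± 27.0 in full-length, NHL domain and control libraries (SD, n = 3 each). The control libraries thus lay within the range of the bait libraries per cDNA, and p was 0.7, 0.9 and 0.9 for full-length against control, NHL domain against control and full-length against NHL domain (exact permutation tests). Over the 39 comparisons of this kind made for the 13 regions described here, the smallest adjusted p was 0.65.

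Within the region, crosslinks gathered at a few nucleotides that recurred between groups. The most used lay 20 nt upstream of the first snoRNA:185 crosslink and held 279 cDNAs, which were 17.6%, 12.4% and 11.6% of the region's cDNAs in full-length, NHL domain and control libraries. It was the 1 position outside genes found in all 9 libraries. The next lay 4 nt upstream with 208 cDNAs, which were 7.98%, 11.7% and 4.65% of the region in full-length, NHL domain and control libraries. Further maxima lay 29, 9 and 93 nt upstream. The distal part, 61 to 95 nt upstream, held 10.8%, 10.3% and 7.71% of the region with the full-length protein. It held 22.2%, 22.5% and 17.5% with the NHL domain and 21.4%, 13.3% and 21.4% in controls. The full-length libraries were thus the 3 lowest, but this division was chosen after the values were seen, the controls had 14 or 15 cDNAs each, and it was not tested.

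**Figure D2:**
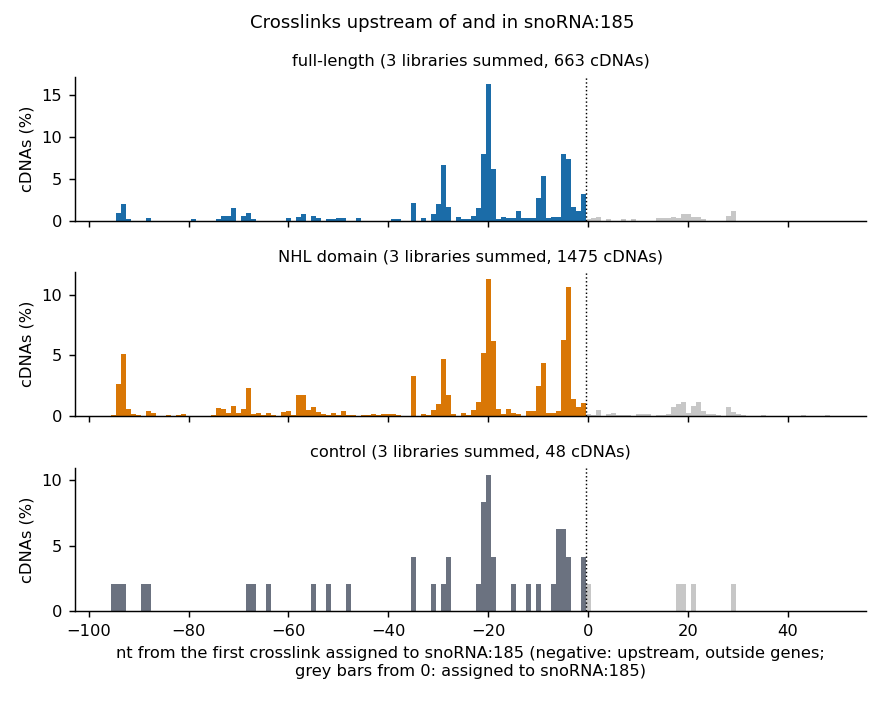
Crosslinks along the region beside snoRNA:185 (x axis, nt from the first crosslink assigned to the gene, upstream to the left; y axis, percent of the cDNAs shown), summed over the 3 libraries of each group. Coloured bars lie outside annotated genes and grey bars in snoRNA:185. In each group the tallest bar is 20 nt upstream, and the gene itself holds few of the cDNAs.

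By chromosome, arm 2R held most. It had 3351 of the 8069 cDNAs outside genes (41.5%), against 22.2% of the cDNAs in genes. The region beside snoRNA:185 made up 59.5% of this, and without it 2R had 22.3% of the remaining 6075 cDNAs. The other arms had 1152 (3L), 999 (3R), 957 (X), 567 (2L) and 109 (chromosome 4) cDNAs outside genes. As a share of each arm's own cDNAs this was 7.10% on 3L, 5.20% on 3R, 7.02% on X, 4.06% on 2L and 13.8% on chromosome 4. Chromosome Y is largely heterochromatic, and 34 of its 36 cDNAs lay outside genes.

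Unplaced scaffolds, the assembled sequences without a chromosome or without a place on one, had 744 cDNAs at 268 positions on 69 scaffolds. All cDNAs on these 69 scaffolds lay outside genes, whereas the rDNA sequence, counted apart, had 46 cDNAs and 0 of them outside genes. Of the 744 cDNAs, 326 came from the single scaffold 211000022279055, and the next scaffold, one mapped to the Y chromosome, had 58 at 50 positions. The mitochondrial genome is densely covered with genes on both strands. It had 156 cDNAs outside genes, 1.93% of those outside genes against 7.85% of those in genes.

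Shares by chromosome were compared between groups for the 20 chromosomes and scaffolds with at least 10 cDNAs outside genes. None passed the exact permutation test after Benjamini-Hochberg adjustment (smallest adjusted p = 0.375, smallest unadjusted p = 0.1, the lowest possible). The mitochondrial share was the 1 chromosome whose values did not overlap in any of the 3 comparisons. It was 2.71%, 2.27% and 2.24% of the cDNAs outside genes with the full-length protein, 1.59%, 1.28% and 1.58% with the NHL domain, and 3.03%, 4.11% and 3.37% in controls. Each control value rests on 3 cDNAs. Chromosome arm 3R had 15.9%, 13.6% and 16.8% with the full-length protein, 12.0%, 10.4% and 9.00% with the NHL domain, and 13.1%, 15.1% and 15.7% in controls. The NHL domain libraries were the 3 lowest there (exact p = 0.1 against either group, adjusted p = 0.375), but counted over positions in place of cDNAs they exceeded the controls by 0.865 percentage points. Values did not overlap for 2 of the 20 chromosomes and scaffolds (10%) in full-length against control, for 8 (40%) in NHL domain against control and for 6 (30%) in full-length against NHL domain.

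Recurrence between libraries was low outside genes, as it was inside them. Of the 4118 positions, 3753 (91.1%) were seen in 1 library, against 92.0% of the positions in genes. The other 365 were seen in 2 or more libraries, and 58 of these lay in the region beside snoRNA:185. Among replicates of the full-length protein 130 of 2013 positions recurred, among those of the NHL domain 127 of 2225, and among controls 11 of 231. Both baits shared 270 positions, 13.4% of the full-length and 12.1% of the NHL domain positions. Controls shared 81 of their 231 positions (35.1%) with either bait, which was 2.04% of the bait positions.

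At the level of regions, 2270 of 2712 were seen in 1 library and 442 in 2 or more, the latter with 69.6% of the cDNAs. The 335 regions found with both baits held 65.9% of the cDNAs. Of the 177 regions with a control cDNA, 76 were also found with a bait, and these held 158 of the 261 control cDNAs (60.5%). Most control cDNAs outside genes thus fell where bait libraries had crosslinks too. Recurrence depends on depth, and the deeper bait libraries could show a position more often than the controls.

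Within each library, positions outside genes were found again in another library more often than positions in genes. The mean was 30.1% ± 9.71 outside genes against 23.0% ± 6.77 in genes (SD, n = 9), higher outside in 8 of 9 libraries (two-sided exact sign-flip test, p = 0.0195, adjusted over 5 measures also 0.0195). A shared position counts in every library that holds it, so the 9 values are not independent and this p is too small. The difference rested on the region beside snoRNA:185. Without it the difference was 0.839 percentage points (exact p = 0.613). Outside genes 89.0% ± 3.89 of positions held a single cDNA, against 93.0% ± 3.23 in genes (lower in 9 of 9 libraries, exact p = 0.0039, the smallest possible with 9 libraries, adjusted p = 0.0049). The mean number of cDNAs per position was 1.38 ± 0.344 outside genes and 1.13 ± 0.1004 in genes (higher in 9 of 9 libraries, exact p = 0.0039, adjusted p = 0.0049). Without the region beside snoRNA:185 that difference was 0.0906 in place of 0.256, with an exact p of 0.0313. Shared positions enter several libraries in these tests too, so their p-values have the same limit.

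The regions that recurred most, with those holding most cDNAs, made up 13 regions that are described in turn. Their nearest gene is given from the crosslinked genes of the files and from RefSeq gene names. Next to the region beside snoRNA:185 came a stretch of 36 nt on scaffold 211000022279055 (positions 665 to 700, minus strand) with 320 cDNAs. No annotated gene lies on this scaffold in the files. It had 3, 3 and 5 cDNAs with the full-length protein, 59, 41 and 201 with the NHL domain, and 2, 3 and 3 in controls. Per 10000 cDNAs this was 2.04, 15.97 and 2.29 with the full-length protein, 137, 51.6 and 50.2 with the NHL domain, and 15.97, 25.9 and 35.3 in controls. All NHL domain libraries were above all others, and full-length replicate 2 lay level with the lowest control.

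The region at chr3L:24300501-24300524 (minus strand, 193 cDNAs) lay in the proximal part of the arm, 65053 nt from the nearest crosslink on the opposite strand, which was in Snap25, a SNARE protein gene of synaptic vesicle release. It had 2, 6 and 6 cDNAs with the full-length protein, 20, 106 and 44 with the NHL domain, and 2, 1 and 6 in controls. Per 10000 cDNAs this was 1.36, 31.9 and 2.75 with the full-length protein, 46.3, 133 and 10.99 with the NHL domain, and 15.97, 8.62 and 70.7 in controls. NHL domain replicate 2 was the highest and the groups overlapped, with control replicate 3 in second place.

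**Figure D3:**
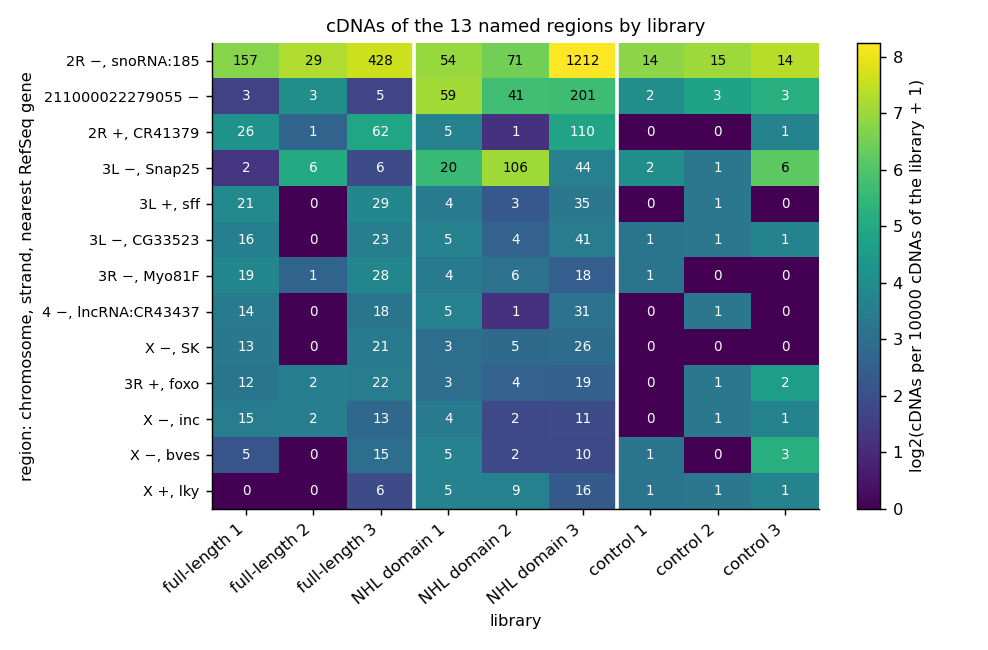
The 13 named regions (rows, labelled by chromosome, strand and nearest RefSeq gene) in the 9 libraries (columns). The number in a cell is the cDNA count, and the colour is log2(cDNAs per 10000 cDNAs of the library + 1). The scaffold region is brightest in the 3 NHL domain libraries, the region beside snoRNA:185 is bright in all 9, and every other row holds 0 to 6 cDNAs in full-length replicate 2 and the controls.

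Several regions were concentrated at a single nucleotide. At chr2R:1809296-1809312 (plus strand, 206 cDNAs) 97.1% of the cDNAs lay at position 1809305. The nearest gene crosslink was 212852 nt away on the same strand and 159044 nt on the opposite strand, and the nearest RefSeq gene was CR41379. It had 26, 1 and 62 cDNAs with the full-length protein, 5, 1 and 110 with the NHL domain, and 0, 0 and 1 in controls. Per 10000 cDNAs this was 17.7, 5.32 and 28.4 with the full-length protein, 11.6, 1.26 and 27.5 with the NHL domain, and 0, 0 and 11.8 in controls, so that the bait and control values overlapped. On chromosome X, 97.6% of the 41 cDNAs of the region chrX:21087518-21087520 (minus strand, nearest gene bves, a Popeye domain protein gene) were at 1 nucleotide, as were 97.4% of the 39 cDNAs at chrX:19986318-19986319 (plus strand, nearest gene lky). The region near bves had 5, 0 and 15 cDNAs with the full-length protein, 5, 2 and 10 with the NHL domain, and 1, 0 and 3 in controls. The region near lky had 0, 0 and 6 with the full-length protein, 5, 9 and 16 with the NHL domain, and 1, 1 and 1 in controls. Both were found in 7 libraries, and per cDNA the controls (14.4 ± 18.5 and 9.46 ± 2.03 per 10000, SD, n = 3) were not below the baits.

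The third narrow region on chromosome X, chrX:1518167-1518169 (minus strand, 49 cDNAs), lay 1071 nt from an opposite-strand crosslink of inc, which encodes an adaptor of the Cullin-3 ubiquitin ligase known from sleep regulation. It had 15, 2 and 13 cDNAs with the full-length protein, 4, 2 and 11 with the NHL domain, and 0, 1 and 1 in controls. The fourth region on this chromosome, chrX:5338798-5338816 (minus strand, 68 cDNAs), had SK, a calcium-activated potassium channel gene, as its nearest RefSeq gene. It had 13, 0 and 21 cDNAs with the full-length protein, 3, 5 and 26 with the NHL domain, and 0, 0 and 0 in controls. It was the 1 named region without any control cDNA. At the controls' depth of 3261 cDNAs a count of 0 allows up to 9.20 per 10000, which is above the pooled 8.86 with the full-length protein and 6.50 with the NHL domain, so a difference was not detectable at this depth.

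Among the remaining regions, chr3L:15899733-15899762 (plus strand, 93 cDNAs, nearest RefSeq gene sff, a kinase gene) had 21, 0 and 29 cDNAs with the full-length protein, 4, 3 and 35 with the NHL domain, and 0, 1 and 0 in controls. The region chr4:414047-414064 (minus strand, 70 cDNAs, nearest RefSeq gene lncRNA:CR43437) had 14, 0 and 18 with the full-length protein, 5, 1 and 31 with the NHL domain, and 0, 1 and 0 in controls. In both, the deep bait libraries held nearly all cDNAs and full-length replicate 2 held none.

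A joint edgeR fit of all genes and all regions compared the groups feature by feature, with 74 features (71 genes and 3 regions) passing the default filter on low counts. The 3 regions were the one beside snoRNA:185, the one on scaffold 211000022279055 and chr3L:24300501-24300524, and the other 2709 regions did not pass. Among these was chr2R:1809296-1809312, although its 206 cDNAs exceeded the 193 of chr3L:24300501-24300524. The filter asks for enough cDNAs in at least 3 libraries, so a region high in 1 group could pass through that group alone. This applies to the scaffold region, whose 3 highest libraries were those of the NHL domain. For full-length against NHL domain 2 of the 3 regions were called, both lower with the full-length protein, where 39.2% of all tested features were called. For full-length against control 0 of 3 were called (1 at an unadjusted p below 0.05), against 6.76% of all features. For NHL domain against control 0 of 3 were called (1 at an unadjusted p below 0.05), against 0% of all features. DESeq2 called 0 regions in either comparison with the control, and 1 of 3 for full-length against NHL domain, where it called 29.7% of all features.

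The scaffold region was lower with the full-length protein than with the NHL domain by a log2 fold change of -3.50 ± 0.65 (SE, edgeR, Benjamini-Hochberg adjusted p = 2.30e-05), and the normalized counts of both groups did not overlap, as was so for 37.8% of all features tested. Leaving out each library in turn gave -4.42 to -2.83, with an adjusted p of at most 0.00877. Its log2 fold change was 1.38 ± 0.67 for the NHL domain against control (adjusted p = 0.272) and -2.12 ± 0.86 for the full-length protein against control (adjusted p = 0.130). Beside snoRNA:185, NHL domain against control gave 0.21 ± 0.53 with the default filter (SE, edgeR, adjusted p = 0.861). When all features with at least 10 cDNAs were kept, NHL domain against control was called at the scaffold region (2.85, adjusted p = 0.00632) and beside snoRNA:185 (1.78, adjusted p = 0.0435). These were 2 of 72 regions, where 22 of 1941 features (1.13%) were called, all of them higher with the NHL domain. In the same setting 2 of 72 regions were called for full-length against NHL domain, against 1.96% of all features, and 0 of 72 for full-length against control (8 at an unadjusted p below 0.05), against 0.155%. At chr3L:24300501-24300524 the log2 fold change of full-length against NHL domain was -2.65 ± 0.73 (adjusted p = 0.00318), although the groups overlapped. Without NHL domain replicate 2 it was -1.11 (adjusted p = 0.416), and it also missed the threshold without full-length replicate 1 (adjusted p = 0.104), without full-length replicate 3 (adjusted p = 0.110) and with DESeq2 (adjusted p = 0.0638). The region beside snoRNA:185 had a log2 fold change of 0.65 ± 0.48 for full-length against NHL domain (adjusted p = 0.313). Scaling by total cDNAs turned this to -0.19. Without NHL domain replicate 3 it was 1.80 (adjusted p = 0.000871).

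The choice of scaling mattered for these libraries. The median log2 fold change of the 74 features for full-length against NHL domain was -0.13 with TMM scaling and -1.04 with total cDNAs, a shift of 0.91. For full-length against control the shift was 0.63 and for NHL domain against control it was -0.25.

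Strand relations were examined next, by asking whether an annotated gene had a crosslink within 500 nt on the opposite or the same strand, in any library. On the opposite strand this was so for 894 of 4118 positions (21.7%), on the same strand for 922 (22.4%) and on both for 357 (8.67%). For 2659 positions (64.6%) neither strand had one. These isolated positions held 54.8% of the cDNAs, and 72.8% when the region beside snoRNA:185 was left out. Most crosslinks outside genes therefore lay away from detected gene crosslinks on either strand. Of the 72 regions with 10 or more cDNAs, 11 had a gene crosslink within 500 nt on the same strand, 19 on the opposite strand and 51 on neither.

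Positions outside genes had an opposite-strand gene crosslink nearby more often than positions in genes did. Both sets are defined by gene assignment on their own strand, and this was not corrected for. In the full-length libraries the share was 23.0%, 14.02% and 23.8% outside genes against 10.4%, 13.3% and 13.98% in genes. In the NHL domain libraries it was 15.2%, 16.3% and 18.4% against 13.97%, 13.02% and 13.2%, and in controls 20.4%, 14.9% and 16.7% against 12.1%, 11.7% and 12.9%. The mean difference was 5.35 percentage points (18.1% ± 3.58 outside genes, 12.7% ± 1.15 in genes, SD, n = 9, higher in 9 of 9 libraries, exact sign-flip test, p = 0.0039, adjusted p = 0.0049). The gene crosslinks searched were pooled over the 9 libraries, and shared positions count in each library that holds them. The 9 differences are therefore not independent, and the sign-flip p-values for them are too small. The difference depended on the distance allowed. At 200 nt it was 7.83 and at 1000 nt 0.294 percentage points (exact p = 0.879). The group means did not differ beyond their spread (20.3% ± 5.44, 16.6% ± 1.61 and 17.3% ± 2.81 in full-length, NHL domain and control libraries, SD, n = 3 each, exact p = 0.5, 0.7 and 0.4 for full-length against control, NHL domain against control and full-length against NHL domain).

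**Figure D4:**
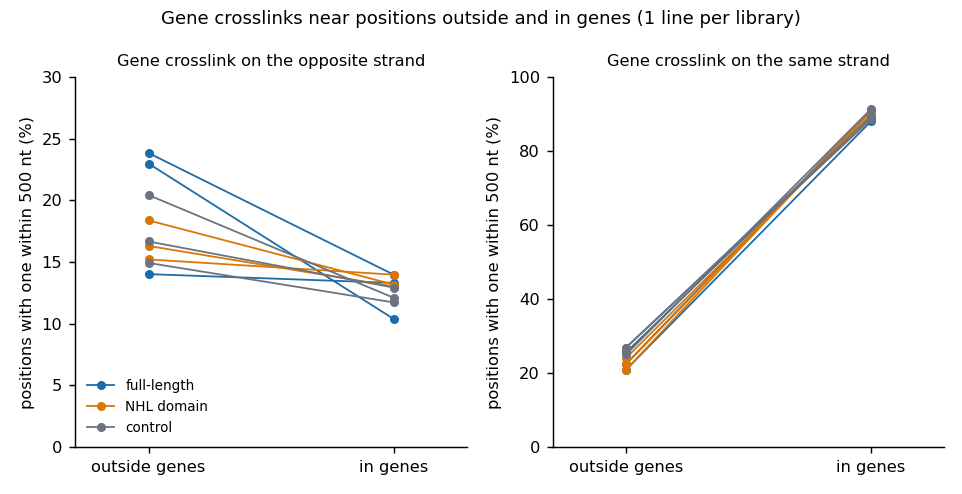
Percent of positions with an annotated-gene crosslink within 500 nt on the opposite strand (left) or on the same strand (right), for positions outside genes and in genes, 1 line per library. On the opposite strand all 9 lines fall from outside genes to in genes, with 18.1% against 12.7% on average. On the same strand all 9 rise, with 23.9% against 89.9%. Positions in genes belong to the gene crosslinks searched there (own position not counted), so this rise follows largely from the definition. The opposite-strand values were not corrected for the definition of both sets by genes on their own strand.

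In all, 383 genes had a crosslink within 500 nt opposite to a position outside genes, and 276 of them faced a single position. The main exception was Myo81F (FBgn0267431), a myosin gene in the pericentromeric part of chromosome arm 3R, which faced 180 positions with 222 cDNAs. The gene itself had 27 cDNAs on the plus strand, so that more cDNAs were seen within 500 nt on the opposite strand than on the strand of the gene. Opposite to Myo81F, 48, 2 and 103 cDNAs were found with the full-length protein, 7, 11 and 49 with the NHL domain, and 1, 0 and 1 in controls. Per 10000 cDNAs this was 32.7, 10.6 and 47.2 with the full-length protein, 16.2, 13.8 and 12.2 with the NHL domain, and 7.99, 0 and 11.8 in controls. Both deep full-length libraries were the highest, but full-length replicate 2 lay below the highest control, and the exact p was 0.2 for full-length against control, 0.1 for NHL domain against control and 0.4 for full-length against NHL domain (smallest adjusted p over 39 comparisons of sets of positions 0.743).

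The positions opposite to Myo81F were spread out rather than concentrated. The largest of its regions, chr3R:2087153-2087658 on the minus strand, spanned 506 nt with 66 positions and 77 cDNAs, no position holding more than 3.90% of them. It had 19, 1 and 28 cDNAs with the full-length protein, 4, 6 and 18 with the NHL domain, and 1, 0 and 0 in controls. On 3R, where Myo81F lies, 36.9% of the positions outside genes had an opposite-strand gene crosslink, against 12.5% to 19.3% on 2L, 2R, 3L, 4 and X. Without the positions near Myo81F the difference between positions outside and in genes was 3.10 percentage points (exact p = 0.0195).

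The second antisense region was of the other kind. Opposite to CG33523 (FBgn0053523) on chr3L:5926417-5926427, minus strand, 92 cDNAs lay within 11 nt, 441 nt from the nearest of 7 crosslinks of the gene. It had 16, 0 and 23 cDNAs with the full-length protein, 5, 4 and 41 with the NHL domain, and 1, 1 and 1 in controls. Per 10000 cDNAs the means were 7.14 ± 6.19, 8.95 ± 3.46 and 9.46 ± 2.03 in full-length, NHL domain and control libraries (SD, n = 3 each). The cDNAs of each group summed gave 10.2, 9.56 and 9.20 per 10000 in the same order, and the full-length mean includes replicate 2 without a cDNA. CG14439, disco-r, a zinc finger gene, and lola, a BTB-domain transcription factor gene, faced 8, 5 and 3 positions with 26, 19 and 19 cDNAs.

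Gene crosslinks show the strand of a gene but not its full extent, and the RefSeq gene spans gave a wider view for the 3850 positions on named chromosomes. Of these, 2098 (54.5%) lay in no RefSeq gene span and 1173 (30.5%) in the span of a gene on the opposite strand. Another 577 lay in spans of genes whose strand could not be read from crosslinks, and 2 in a span on their own strand. The coordinates of both sources matched, since 61842 of 61896 positions in genes (99.9%) fell in the RefSeq span of the same symbol.

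Same-strand neighbours were mostly protein-coding genes, and the positions outside genes lay after them. Of 589 positions within 500 nt of a crosslink of a protein-coding gene on the same strand, 543 (92.2%) lay downstream and 46 upstream. Distances were taken to the nearest gene crosslink and not to the annotated gene end. By the study, crosslink sites of both baits lay mostly in 3′ UTRs. This favours downstream positions within the 500-nt limit and was not corrected for. The downstream positions followed 332 genes, with at most 10 positions at any of them. Their median distance from the last gene crosslink was 115 nt, and 227 of them (41.8%) lay within 100 nt. In the libraries, 82 of 83, 5 of 8 and 195 of 215 such positions were downstream with the full-length protein, 32 of 33, 35 of 38 and 194 of 210 with the NHL domain, and 8 of 10, 3 of 3 and 4 of 4 in controls. Per 10000 cDNAs the downstream positions had 58.6, 26.6 and 95.3 cDNAs with the full-length protein, 78.7, 45.3 and 49.7 with the NHL domain, and 63.9, 25.9 and 47.1 in controls, and the groups overlapped.

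**Figure D5:**
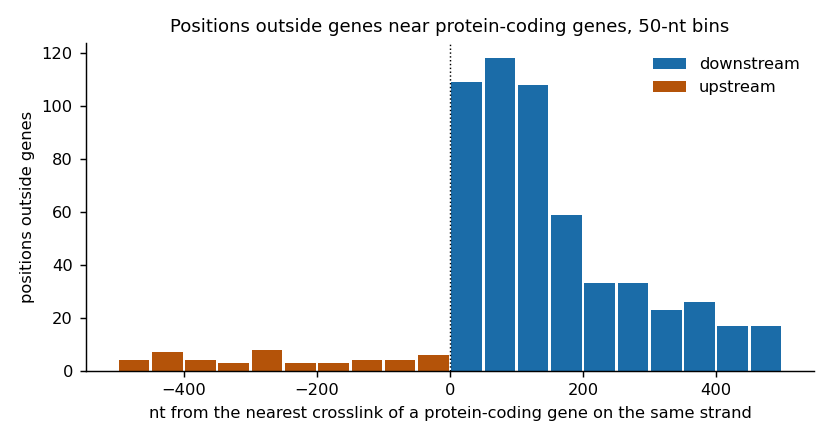
Positions outside genes within 500 nt of the nearest crosslink of a protein-coding gene on the same strand, over all 9 libraries, in 50-nt bins (x axis, nt, positive downstream of the gene; y axis, number of positions). The 3 bins nearest downstream hold 109, 118 and 108 positions, and no upstream bin holds more than 8. Distances are to gene crosslinks and not to annotated gene ends, which favours the downstream side where crosslinks lie mostly in 3′ UTRs.

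Examples were akirin, which encodes a nuclear factor of immune gene expression, with 6 downstream positions and 12 cDNAs, and pigs, a gene of a Gas2-family cytoskeletal protein, with 7 downstream positions and 11 cDNAs at 5 to 46 nt. Snap24, a SNARE protein gene, had 8 downstream positions with 10 cDNAs, nearly as many as the 11 cDNAs of the gene itself. Aldh, a mitochondrial aldehyde dehydrogenase gene, had 7 downstream positions with 9 cDNAs. Among the named regions, one lay after foxo (FBgn0038197), the transcription factor of insulin signalling. This region of 473 nt, chr3R:14088322-14088794, began 658 nt after the last foxo crosslink on the plus strand, beyond the 500-nt limit, and held 60 positions and 65 cDNAs, against 12 cDNAs in the gene. It had 12, 2 and 22 cDNAs with the full-length protein, 3, 4 and 19 with the NHL domain, and 0, 1 and 2 in controls. Per 10000 cDNAs this was 8.17, 10.6 and 10.1 with the full-length protein, above 6.94, 5.03 and 4.75 with the NHL domain (exact p = 0.1, the lowest possible), whereas controls at 0, 8.62 and 23.6 overlapped both.

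Non-coding and mitochondrial neighbours differed by kind. Near small nucleolar RNAs 94 of 96 positions were upstream, nearly all at snoRNA:185. Near mitochondrial genes 100 of 122 were upstream, and the genes with most positions on either side were mt:tRNA:Thr-TGT (33), mt:tRNA:Pro-TGG (23) and mt:tRNA:Tyr-GTA (18). Mitochondrial transcripts are long and are cut at the tRNAs between their mRNAs. In this compact genome 128 of 141 positions outside genes also had an opposite-strand gene crosslink within 500 nt. Among tRNA genes of the nucleus 27 positions were downstream and 17 upstream. Near long non-coding RNAs 17 of 21 positions were downstream, the direction seen near protein-coding genes.

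The same-strand share itself was 20.9%, 22.4% and 25.5% with the full-length protein, 22.3%, 20.9% and 24.0% with the NHL domain, and 26.9%, 26.9% and 25.0% in controls. The NHL domain libraries were all below the controls, by 3.84 percentage points on average (exact p = 0.1, the lowest possible). They were above them by 1.13 percentage points when positions were weighted by cDNAs and by 1.39 when only gene crosslinks of the same library were used, and the other comparisons overlapped (exact p = 0.2 for full-length against control and 0.6 for full-length against NHL domain).

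By the methods the transfected plasmids carry sequence of the Act5C promoter, and positions upstream of the actin gene Act5C (FBgn0000042, X, plus strand) were therefore counted apart. Within 5000 nt upstream of its first crosslink there were 29 positions with 29 cDNAs. These were 13, 2 and 3 cDNAs with the full-length protein, 0, 2 and 8 with the NHL domain, and 1, 0 and 0 in controls. Act5C itself had 42, 1 and 83 cDNAs with the full-length protein, 8, 16 and 97 with the NHL domain, and 0, 0 and 0 in controls. Reads from the plasmid and from the genomic locus cannot be told apart there, and the 29 cDNAs were a small part of the 8069 outside genes.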

How the data were processed

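Reads were demultiplexed, stripped of PCR duplicates and adapters, and mapped to the Drosophila melanogaster genome of Ensembl release 98 by the authors, replicate by replicate, with crosslinks counted in iCount (version not given in the sources used here). The submitters' processing notes name STAR 2.7.3a. How reads with several genomic matches were treated was not given either. The deposited values are counts, the distinct cDNAs at each crosslinked position, not normalized. The deposited score tables also hold the peak caller's p-value after correction (a false discovery rate), which the authors' software set to 1 at every position outside genes. Deposited peaks and clusters were used only to count those outside genes, and the clusters with flanks were not used.

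Gene names came from tables that pair them with FlyBase identifiers, and 6179 of 6780 genes matched RefSeq (Release 6 plus ISO1 MT) by symbol. Gene crosslinks were pooled over the 9 libraries to find neighbours. Libraries held 849 to 40032 cDNAs. Two-sided exact permutation tests compared groups of 3 libraries, and positions outside and in genes by exact sign-flip tests over 9 libraries. Libraries share positions and the pooled gene crosslinks, so the sign-flip p-values are too small. edgeR 4.0.16 in R 4.3.3 fitted 9492 features (6780 genes, 2712 regions) over all 9 libraries with the cDNA totals as library sizes, TMM, the default filter (at least 91 cDNAs in the 74 features left) and Benjamini-Hochberg adjustment at 0.05. The common dispersion was 0.145. DESeq2 1.42.0 was an alternative. Other computations used SciPy 1.17.1, pandas 2.3.3 and NumPy 2.4.6 in Python 3.11.15, figures matplotlib 3.10.9, and the tests were checked on simulated data.

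The named regions were the 10 with most cDNAs, up to 5 called in each edgeR comparison, and up to 10 seen in at least 7 libraries by cDNAs. Genes were named as neighbours of regions or positions, beside Act5C and mei-P26. Same-strand and opposite-strand examples were chosen after their counts were seen and follow no ranking. Genes with more positions were left out, such as l(1)G0289 (10 downstream positions) and lncRNA:CR45668 (20 opposite-strand positions). The regions, lists and tests were chosen with earlier results of these data known. Nothing shows whether replicates shared a culture or a day, so p-values measure the spread between these libraries.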

Additional observations from a re-analysis of the deposited data

Results flagged for a closer look

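In the full-length against NHL domain contrast of the edgeR fit, 2 of the 3 tested regions outside genes were called, where 29 of all 74 features (39.2%) were called. The region on scaffold 211000022279055 could pass the count filter through the NHL domain libraries alone, where it was high. Its call is therefore not independent of that filter. The region of 36 nt on scaffold 211000022279055 had a log2 fold change of -3.50 (SE 0.65, Benjamini-Hochberg adjusted p = 2.30e-05), with 3, 3 and 5 cDNAs with the full-length protein and 59, 41 and 201 with the NHL domain. The region chr3L:24300501-24300524 had a log2 fold change of -2.65 (SE 0.73, adjusted p = 0.00318), with 2, 6 and 6 cDNAs with the full-length protein and 20, 106 and 44 with the NHL domain. This call was lost without NHL domain replicate 2 (-1.11, adjusted p = 0.416). It was also lost without full-length replicate 1, without full-length replicate 3 and with DESeq2. The groups overlapped, and per cDNA control replicate 3 was above all libraries but NHL domain replicate 2. Groups of 3 libraries were too small for a search for single outlying libraries.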

How the results depend on the processing

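Of 236 alternatives to the answers of the comparisons, 213 were labelled the same, and of 225 for single regions or chromosomes 203 were. The label stood for an unchanged direction and side of the 0.05 threshold, or for an equal or near number of calls. Permutation tests of 3 libraries against 3 cannot give a p below 0.1, so only a change of sign could show there. These counts are therefore no measure of robustness for the group comparisons. All sign changes concerned group differences that had not passed a test. Differences are in percentage points, for full-length against control, NHL domain against control or full-length against NHL domain. The share of cDNAs outside genes changed sign for full-length against control on chromosome arms only (0.126), and for NHL domain against control over positions (-0.846) and without positions of 10 or more cDNAs (-0.443). The opposite-strand share changed sign for NHL domain against control with gene crosslinks of the same library (3.17) and at 1000 nt (0.112), and for full-length against control without positions near Myo81F (-0.415). The same-strand share changed sign with gene crosslinks of the same library and weighted by cDNAs, for full-length against control (2.74 and 3.04) and NHL domain against control (1.39 and 1.13), and for full-length against NHL domain at 200 nt (-0.644). The chromosome shares over positions changed sign on 2R for full-length against control (-3.39) and NHL domain against control (-4.93), where leaving out the largest region also did (-0.684), and for NHL domain against control on scaffold 211000022279055 (-1.64) and 3R (0.865). Between positions outside and in genes, the opposite-strand difference was 0.294 at 1000 nt (exact p = 0.879), and the recurrence difference was 0.839 without the largest region (exact p = 0.613). The cause was not tested in any of these.

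In edgeR the number of regions called for full-length against NHL domain was 1 with DESeq2 in place of 2, and for NHL domain against control 2 of 72 in place of 0 of 3 with all features of at least 10 cDNAs kept, where 22 of 1941 features (1.13%) were called. The log2 fold change of the region beside snoRNA:185 for full-length against NHL domain was -0.19 without TMM, -0.70 without a filter and -0.41 with at least 10 cDNAs. Correlations of deviations ranged from -0.36 to 0.34 for same-numbered libraries and from -0.38 to 0.40 for the others. They cannot show whether same-numbered libraries shared a culture or a day. With a replicate block 0, 0 and 2 regions were called, as without it, 24 in place of 29 features differed between the baits, and the log2 fold change beside snoRNA:185 for NHL domain against control was -0.041 (adjusted p = 0.999).

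Leaving out each library in turn gave 1 to 3 regions called for full-length against NHL domain. It gave -1.43 to 0.661 for the share of cDNAs outside genes in full-length against control, -1.92 to 0.835 for the opposite-strand share in NHL domain against control, and -0.760 to 1.57 for the same-strand share in full-length against NHL domain. The 2R share ranged from -6.48 to 4.88 for NHL domain against control and from -0.295 to 11.1 for full-length against NHL domain. Log2 fold changes for NHL domain against control ranged from -0.80 to 0.71 beside snoRNA:185 and from -0.52 to 2.45 at chr3L:24300501-24300524. Alternatives without the largest region, without positions near Myo81F and, for strand shares, on arms only were chosen after seeing the data. The 73 to 99 control cDNAs outside genes limit every comparison with controls.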

Other observations

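A run of 13 regions does not exhaust what recurred. The other regions seen in at least 7 libraries included one of 38 nt on scaffold 211000022278282 (positions 1916 to 1953, plus strand), with 1, 1 and 4 cDNAs with the full-length protein, 1, 5 and 19 with the NHL domain, and 1, 1 and 0 in controls. Another, chr2R:5531653-5531660 on the minus strand, had 93.8% of its 32 cDNAs at 1 nucleotide and held 2, 1 and 4 cDNAs with the full-length protein, 2, 14 and 7 with the NHL domain, and 1, 0 and 1 in controls. Both were found in 8 libraries, and NHL domain replicates 3 and 2 held most of their cDNAs. On the scaffold mapped to the Y chromosome, 50 positions had 4, 3 and 23 cDNAs with the full-length protein, 3, 5 and 18 with the NHL domain, and 0, 1 and 1 in controls, so that its crosslinks were spread over many positions.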
